A study of Mus musculus with 6 samples.

Results

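The genes described here are the antiviral effectors switched on by type I interferon, in sorted bone marrow cells of mice with chronic myeloid leukemia (CML) or acute myeloid leukemia (AML). They were taken from a named list of 38 genes, of which 34 had a probe set carrying that gene's symbol alone, among 22180 genes measured in all. Where a gene had several, its brightest probe set by mean level was used. Oas1a, Dtx3l, Ifi44 and Ifi27l2a lacked such a probe set and were not analysed here. All 34 measured genes were kept, with no filter on low values.

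Each group held 3 microarrays, 1 per sample, and the groups were taken from the sample titles. Both groups shared the Col2.3 GFP genotype, a fragment of the Col1a1 promoter that marks bone-forming cells with a green fluorescent protein, and the cells were labelled osteoblastic. The labels used here give no age, strain, oncogene or other agent for either leukemia, and they do not state whether each sample was a separate mouse, so the p-values below describe the spread between samples, which may be technical. Every sample's source name reads CML, the AML-titled ones included, so each direction below rests on the titles.

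Type I interferons bind the receptor pair IFNAR1 and IFNAR2, and the kinases JAK1 and TYK2 then activate STAT2. Together with IRF9 it acts in a complex that binds the interferon-stimulated response element (ISRE) in the promoters of antiviral genes. The induced proteins include sensors of viral RNA, enzymes that degrade or edit RNA, blockers of translation and budding, and the ubiquitin-like modifier ISG15. In the bone marrow the same pathway is known to act on haematopoietic stem cells and on cells of the bone lineage.

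Promoter stretches of 6 of these genes are shown because they hold the site through which the pathway acts, in genes lower in AML at an unadjusted p under 0.05 in limma (Isg15, Rsad2, Ifit1, Oas3, of which Rsad2 passed after adjustment) and in genes whose groups overlapped (Ifit3, Stat2). They come from RefSeq (GRCm38.p6) and are written 5′ to 3′ on the strand of the gene, ending before its start. Capitals mark each match to the ISRE core, which is GAAA repeated with 2 bases of any kind between the copies, searched on both strands. Matches may overlap one another.
Isg15: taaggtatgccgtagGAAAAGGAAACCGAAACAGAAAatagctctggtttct
Rsad2: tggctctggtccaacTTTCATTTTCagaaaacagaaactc
Ifit1: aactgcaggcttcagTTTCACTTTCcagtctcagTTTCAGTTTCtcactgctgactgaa
Oas3: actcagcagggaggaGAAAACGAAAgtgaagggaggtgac
Ifit3: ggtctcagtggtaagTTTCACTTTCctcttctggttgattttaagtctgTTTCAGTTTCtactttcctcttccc
Stat2: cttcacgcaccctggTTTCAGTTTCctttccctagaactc

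The Isg15 stretch is chr4:156200860-156200911 on the minus strand and holds 3 overlapping matches. The Rsad2 stretch is chr12:26456548-26456587 on the minus strand, that of Ifit1 is chr19:34640770-34640828 on the plus strand, and that of Oas3 is chr5:120777710-120777749 on the minus strand. Those of Ifit3 and Stat2 are chr19:34583358-34583431 and chr10:128270261-128270300, both on the plus strand. Of the 38 genes, 28 matched an entry in the promoter table, which spans 250 bases before to 50 after each start, and 13 of the 28 (46.4%) held at least 1 match, against 3.99% of all 27025 genes in the table. Of the genes lower in AML at p under 0.05 before adjustment, 6 were in the table and 4 held a match, and of the other measured genes 8 of 19 did. A match describes these letters in this window and does not show a site in use.

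The antiviral genes did not move as a block between the leukemias. A few were lower in AML, Isg15, Rsad2 and Usp18 foremost, whereas the sensors of viral RNA and Stat2 overlapped between the groups. At an adjusted p under 0.05 in limma, 2 of the 34 were lower in AML, Rsad2 and Usp18, where 0.0812% of all genes did. None passed as higher (1.83% of all genes did). Without adjustment, 9 were lower at p under 0.05 in limma (26.5% of the 34, against 8.99% of all genes), and Sp100 was higher (12.6% of all genes were). Every AML array lay below every CML array for 10 genes (29.4%), against 17.9% of all genes, and above for 2, Samd9l and Sp100, against 13.3%. A log2 change of -1 or less was seen in 8 genes (23.5%), against 1.98% of all genes. These were Isg15, Rsad2, Oasl2, Isg20, Rtp4, Ifit1, Usp18 and Oas3. By value 24 were lower, or 70.6%, where 61.7% of all genes were. The median log2 change, AML minus CML, was -0.21 over the 34 genes and -0.11 over all genes. In the upper 50% of genes by mean level 20 of 27 were lower by value, where 40.2% of all genes there were. Their median log2 change was -0.36, against 0.17 for all genes there. In the lower 50% by mean level 4 of 7 were lower by value, where 83.2% of all genes there were. The medians there were -0.03 and -0.195. Centring the arrays on their medians moved the median of all genes to 0.04 and that of the 34 genes to -0.059.

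**Figure D1:**
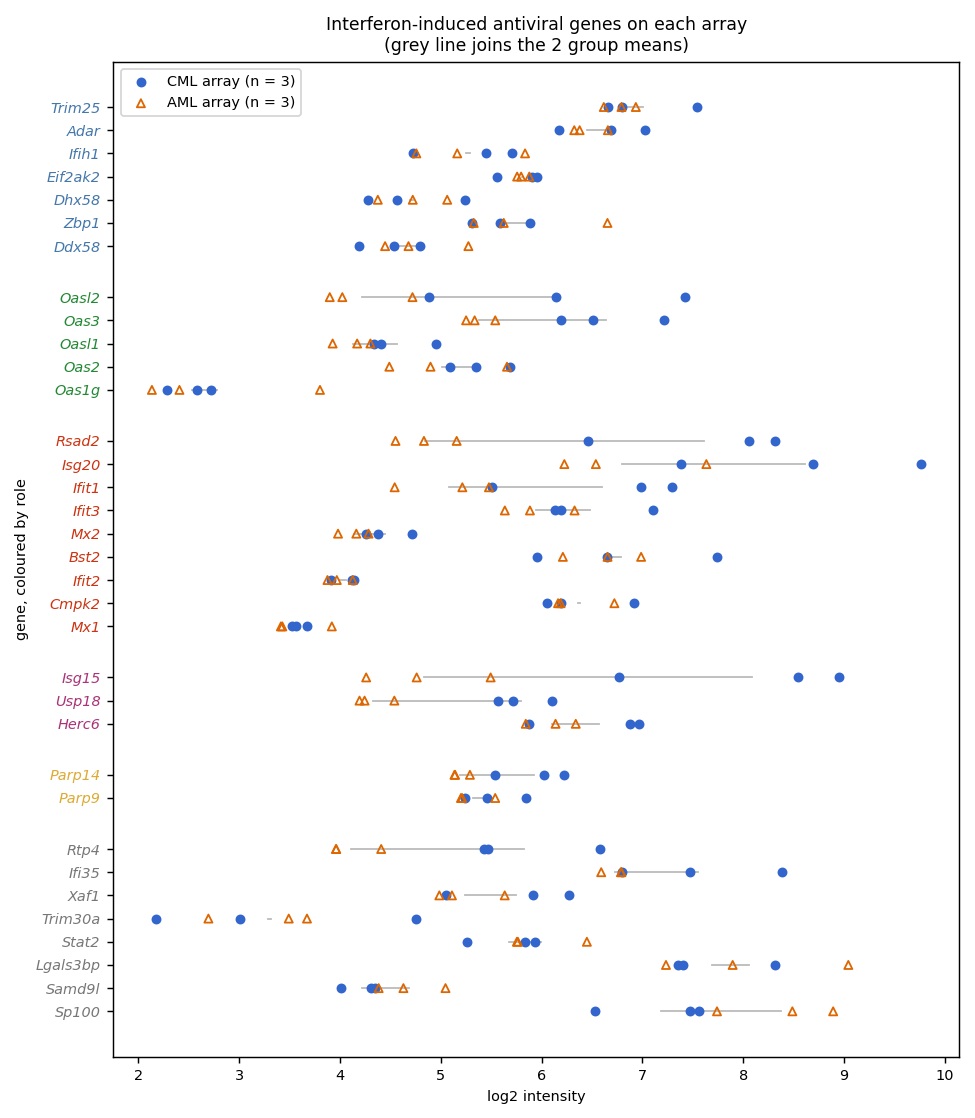
Log2 intensity (horizontal axis) of the 34 genes (vertical axis, coloured by role) on each of the 3 CML arrays (filled circles) and 3 AML arrays (open triangles), with a grey line between the group means. Isg15, Rsad2, Usp18, Oas3 and Rtp4 show 2 separate sets of points, while the points of the RNA sensors are mixed.

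The ISG15 pathway held the largest difference of the 34 genes. ISG15 is attached to target proteins by a chain of enzymes, in the mouse with HERC6 as the ligase, and USP18 removes it and also damps signalling at IFNAR2. Isg15 (probe set 17434023) had log2 intensities of 6.77, 8.95 and 8.55 in CML, given here and below in the order of arrays 1 to 3, and of 4.26, 4.76 and 5.49 in AML. The lowest CML array lay above the highest AML array, and the means were 8.09 ± 1.16 and 4.84 ± 0.62 (SD, n = 3 each). Isg15 was 9.51-fold lower in AML by value and missed the threshold (log2 change -3.25 ± 0.60, SE; limma adjusted p = 0.0534).

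Usp18 (probe set 17462437) was at 6.10, 5.57 and 5.72 on the CML arrays and at 4.54, 4.24 and 4.19 on the AML arrays. These sets do not overlap and each is narrow, with SDs of 0.28 and 0.19. Usp18 fell 2.77-fold in AML (log2 change -1.47 ± 0.19, SE; limma adjusted p = 0.0298). With 1 array left out it passed only without CML 1 and without CML 2, with log2 changes from -1.59 to -1.32 over the 6 fits. It also missed the threshold after quantile normalization, cyclic loess or a floor of 16 (limma adjusted p = 0.0518, 0.0547 and 0.101). With replicate number as a block, its limma adjusted p was 0.0986, and 0 of all 22180 genes passed in that fit. Herc6 overlapped between the groups, at 5.87, 6.87 and 6.97 in CML and 5.84, 6.14 and 6.34 in AML (log2 change -0.47; limma adjusted p = 0.391).

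The conjugation enzymes of ISG15 outside the list of 34 were Uba7, the activating enzyme, and Ube2l6, the conjugating enzyme. Ube2l6 was at 7.76, 8.69 and 8.16 in CML and at 5.06, 6.08 and 7.16 in AML, all AML arrays below all CML arrays, with a log2 change of -2.10 ± 0.53 (SE) that did not pass (limma adjusted p = 0.105). Uba7 overlapped, at 6.36, 8.37 and 8.48 in CML and 6.48, 7.37 and 7.73 in AML, with a log2 change of -0.54 (limma adjusted p = 0.590).

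Among the direct effectors, Rsad2, Ifit1 and Isg20 were lower in AML at an unadjusted p under 0.05 and the other 6 were not. Rsad2 (probe set 17280327) encodes viperin, a radical SAM enzyme that makes a chain-terminating nucleotide. It was at 6.46, 8.05 and 8.32 on the CML arrays and at 4.55, 4.83 and 5.16 on the AML arrays. The AML arrays were close together and all below CML 1, the lowest of its group. Rsad2 fell 6.79-fold (log2 change -2.76 ± 0.48, SE; limma adjusted p = 0.0491). With 1 array left out it passed only without CML 1, and its log2 change ran from -3.34 to -2.41. It too missed the threshold after quantile normalization, cyclic loess or a floor of 16 (limma adjusted p = 0.0709, 0.0710 and 0.162). With replicate number as a block, the limma adjusted p of Rsad2 was 0.0993. Cmpk2, a mitochondrial nucleotide kinase that supplies the substrate of viperin and is the chromosomal neighbour of Rsad2, did not follow it, at 6.05, 6.91 and 6.19 in CML and 6.19, 6.72 and 6.16 in AML. Its log2 change was -0.03, with a 95% interval from -0.69 to 0.64, and it turned to 0.12 after median centring.

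Ifit1 binds viral RNA that lacks the host's cap methylation and blocks its translation. It was at 5.50, 7.30 and 6.99 in CML and at 5.48, 5.21 and 4.54 in AML. CML 1 and AML 1 were nearly level, so the separation of the groups was narrow for Ifit1 (log2 change -1.52 ± 0.50, SE; limma adjusted p = 0.164). Its adjusted p was 0.0433 without CML 1 in limma. Ifit3, of the same family, was lower by 0.53 on the log2 scale with overlapping arrays (limma adjusted p = 0.341). Ifit2 was dim, with means of 4.06 and 3.99, within the lowest 38.6% of genes by mean level.

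Isg20, an exonuclease that degrades RNA, was at 7.39, 9.76 and 8.69 in CML and at 6.22, 6.54 and 7.63 in AML. AML 3 lay above CML 1, so the groups overlapped (log2 change -1.81 ± 0.64, SE; limma adjusted p = 0.185). Bst2, or tetherin, which holds budding virus particles at the cell surface, spanned 5.96 to 7.74 in CML against 6.21 to 6.99 in AML (log2 change -0.17; limma adjusted p = 0.831). The dynamin-like GTPases Mx1 and Mx2 were both dim: Mx1 had a mean of 3.58 in CML and 3.59 in AML, while Mx2 was at 4.37, 4.26 and 4.71 in CML and 4.28, 3.98 and 4.16 in AML (log2 change -0.31; limma adjusted p = 0.327). Many laboratory mouse strains are known to carry defective Mx1 alleles, and the labels do not give the strain.

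The OAS enzymes, which sense double-stranded RNA and make the oligoadenylates that activate RNase L, split in the same way. Oas3 was at 6.20, 6.51 and 7.22 in CML and at 5.34, 5.54 and 5.25 in AML. Its groups were separate, with an SD of 0.15 in AML (log2 change -1.27 ± 0.27, SE; limma adjusted p = 0.0742). Oasl2, an OAS-like protein, was at 4.89, 7.42 and 6.15 in CML and at 4.02, 4.72 and 3.90 in AML. It had the widest CML spread of the OAS genes, an SD of 1.27, and did not pass (log2 change -1.94 ± 0.61, SE; limma adjusted p = 0.156).

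Oasl1, which is known to repress translation of Irf7, was at 4.95, 4.34 and 4.41 in CML and at 4.17, 4.30 and 3.93 in AML, separate by a small margin between CML 2 and AML 2 (log2 change -0.43, limma adjusted p = 0.279). Oas2 overlapped, at 5.09, 5.35 and 5.68 in CML and 5.66, 4.90 and 4.49 in AML (log2 change -0.36, limma adjusted p = 0.498). Oas1g was among the dimmest genes, within the lowest 8.5% by mean level, and was above 3 only on AML 1, at 3.80. Oas1a and Oas1g are close paralogues, so the probe set of either could take signal from the other.

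**Figure D2:**
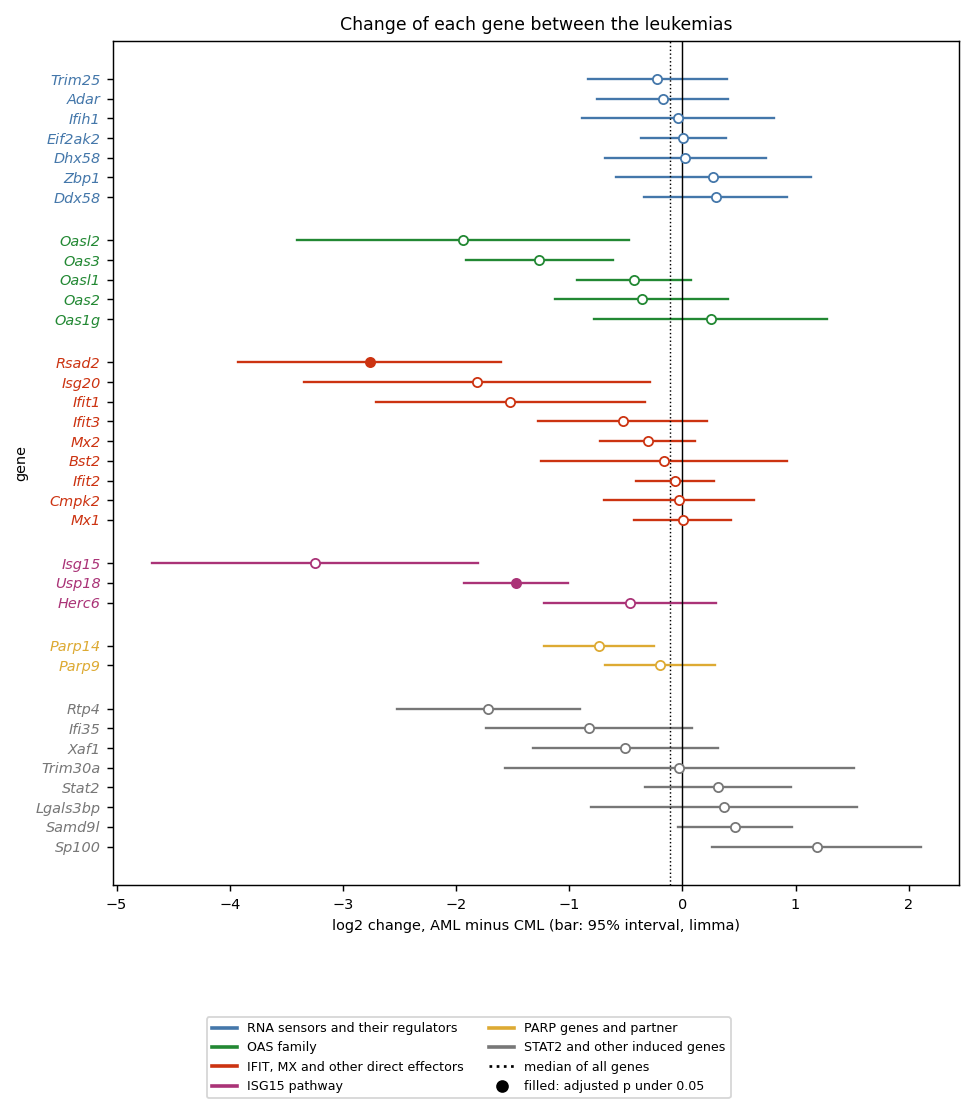
Log2 change, AML minus CML (horizontal axis), of each of the 34 genes (vertical axis) with its 95% interval from limma, coloured by role; filled points passed an adjusted p of 0.05 and the dotted line is the median of all genes (-0.11). Rsad2 and Usp18 are the filled points, and the 7 RNA sensors and regulators all have intervals that include 0.

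The 7 RNA sensors and their regulators showed no separation of the groups. All 7 overlapped, none had an unadjusted p under 0.05 in limma, and their log2 changes ran from -0.22 for Trim25 to 0.30 for Ddx58. Ddx58 encodes RIG-I, a helicase that detects viral RNA with a free triphosphate end. It was at 4.53, 4.18 and 4.79 in CML and at 5.27, 4.68 and 4.45 in AML (95% interval of the change from -0.34 to 0.93; limma adjusted p = 0.498). Trim25, a ubiquitin ligase that acts on RIG-I, was at 6.80, 7.54 and 6.66 in CML and 6.93, 6.62 and 6.79 in AML (95% interval from -0.83 to 0.39; limma adjusted p = 0.597). CML 2 alone was high for Trim25.

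Ifih1, the long double-stranded RNA sensor MDA5, had a log2 change of -0.04 with a 95% interval from -0.89 to 0.81, and Dhx58, the regulatory helicase LGP2, one of 0.03 from -0.68 to 0.74. Eif2ak2, the kinase PKR that stops translation on double-stranded RNA, had the narrowest interval of the 7, from -0.37 to 0.38. Adar, which edits adenosine to inosine, was at 6.17, 6.68 and 7.02 in CML and 6.32, 6.66 and 6.38 in AML (limma adjusted p = 0.658). Zbp1, a sensor of Z-form nucleic acid that triggers necroptosis, was at 5.89, 5.59 and 5.30 in CML and 5.62, 6.65 and 5.33 in AML, with AML 2 high (limma adjusted p = 0.641). The 95% interval of the change of Zbp1 ran from -0.58 to 1.13.

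Of the PARP genes, Parp14, a mono-ADP-ribosyltransferase, was lower in AML by value. It was at 5.53, 6.22 and 6.02 in CML and at 5.14, 5.14 and 5.29 in AML, with no overlap (log2 change -0.74 ± 0.20, SE; limma adjusted p = 0.124). Parp9, which acts in a complex with the ubiquitin ligase DTX3L, overlapped, at 5.45, 5.85 and 5.24 in CML and 5.20, 5.21 and 5.54 in AML (log2 change -0.20; limma adjusted p = 0.553).

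Among the remaining 8 genes, Rtp4 and Ifi35 were lower on every AML array and Samd9l and Sp100 higher. Rtp4, a receptor transporter protein known to bind RNA of flaviviruses, was at 5.43, 5.47 and 6.58 in CML and at 3.96, 4.41 and 3.96 in AML. The groups were a full log2 unit apart at their nearest arrays, CML 1 and AML 2, and Rtp4 was 3.28-fold lower by value (log2 change -1.71 ± 0.34, SE; limma adjusted p = 0.0620). Ifi35 was at 6.79, 8.38 and 7.47 in CML and at 6.79, 6.59 and 6.79 in AML, with CML 1 level with the AML arrays (log2 change -0.83; limma adjusted p = 0.259). The second probe set of Ifi35 differed by -0.87.

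Sp100, a component of nuclear bodies, was at 7.56, 6.53 and 7.47 in CML and at 8.89, 8.49 and 7.74 in AML. It was 2.28-fold higher by value with no overlap (log2 change 1.19 ± 0.39, SE; limma adjusted p = 0.163). Its 3 dimmer probe sets differed by 0.59, 0.60 and 0.84. Samd9l, a growth suppressor of haematopoietic cells, was at 4.31, 4.005 and 4.35 in CML and 5.05, 4.38 and 4.63 in AML (log2 change 0.47; limma adjusted p = 0.253). Stat2, which carries the signal itself, was at 5.26, 5.93 and 5.84 in CML and at 5.76, 6.45 and 5.75 in AML. Its arrays overlapped, with a 95% interval from -0.33 to 0.96 (limma adjusted p = 0.484). Xaf1, a promoter of cell death, was lower by 0.50 on the log2 scale and Lgals3bp, a secreted galectin-binding protein, higher by 0.37, both with overlapping arrays. The second probe set of Lgals3bp differed by 0.05. Trim30a spread most within CML, from 2.18 on CML 2 to 4.75 on CML 1.

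The steps upstream of these genes moved in unlike directions by value. Of 13 measured genes that act in the induction of interferon, none passed an adjusted p of 0.05, 6 were higher and 2 lower at p under 0.05 before adjustment in limma (46.2% and 15.4%, against 12.6% and 8.99% of all genes), and the median log2 change was 0.46. In the upper 50% of genes by mean level 23.4% were higher at that p, with a median change of 0.17. Sting1 and Cgas, the adaptor and the enzyme of cytosolic DNA sensing, were higher on every AML array, with log2 changes of 1.51 ± 0.28 and 0.53 ± 0.14 (SE; limma adjusted p = 0.0558 and 0.109). Sting1 was at 4.33, 4.59 and 5.01 in CML and at 6.57, 6.24 and 5.66 in AML. Irf7, the factor that amplifies interferon transcription and is itself induced by it, was at 6.35, 6.39 and 7.06 in CML and at 5.74, 5.61 and 4.91 in AML, a log2 change of -1.18 ± 0.29 (SE; limma adjusted p = 0.103).

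Of 16 interferon ligand genes, 15 were lower by value (93.8%, against 61.7% of all genes and 83.2% of the lower 50% of genes by mean level), 7 of them at p under 0.05 before adjustment in limma (43.8%, against 8.99% and 10.6%). Ifna1 fell, at 6.89, 7.10 and 7.28 in CML and 6.14, 6.25 and 6.17 in AML (log2 change -0.90 ± 0.15, SE; limma adjusted p = 0.0441). Ifne, the constitutive epithelial interferon, was at 4.01, 4.48 and 4.64 in CML and 3.62, 3.86 and 3.67 in AML (log2 change -0.66; limma adjusted p = 0.144). Interferon alpha genes are near-identical paralogues, and 11 of the 16 ligands lay in the lower 50% of genes by mean level, where the median change of all genes was -0.195. With 1 array left out, Ifna1 passed only without CML 1 (limma adjusted p from 0.0655 to 0.186 otherwise). Ifnb1 was in the lowest 9.1% of genes by mean level, with means of 2.78 and 2.61.

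Of 9 measured genes of the receptor and its signalling, Ptpn6, a phosphatase of blood cells, rose from 6.93, 6.10 and 6.75 in CML to 9.31, 9.31 and 8.45 in AML (log2 change 2.43 ± 0.32, SE; limma adjusted p = 0.0298). It lost its call without CML 3, AML 1 or AML 2 (limma adjusted p = 0.0862, 0.131 and 0.134). In each of those fits 0 of all 22180 genes passed. Ifnar2 was at 7.89, 8.90 and 8.79 in CML and 9.48, 9.68 and 8.93 in AML, and Ifnar1 at 6.97, 7.18 and 6.76 against 7.25, 7.56 and 7.29. Both were higher on every AML array without passing (limma adjusted p = 0.212 and 0.241). Irf9 went the other way, at 6.27, 6.63 and 6.40 in CML and 5.40, 5.53 and 5.74 in AML (log2 change -0.88 ± 0.17, SE; limma adjusted p = 0.0558), and so did the feedback inhibitor Socs1 by value (-1.40; limma adjusted p = 0.178).

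**Figure D3:**
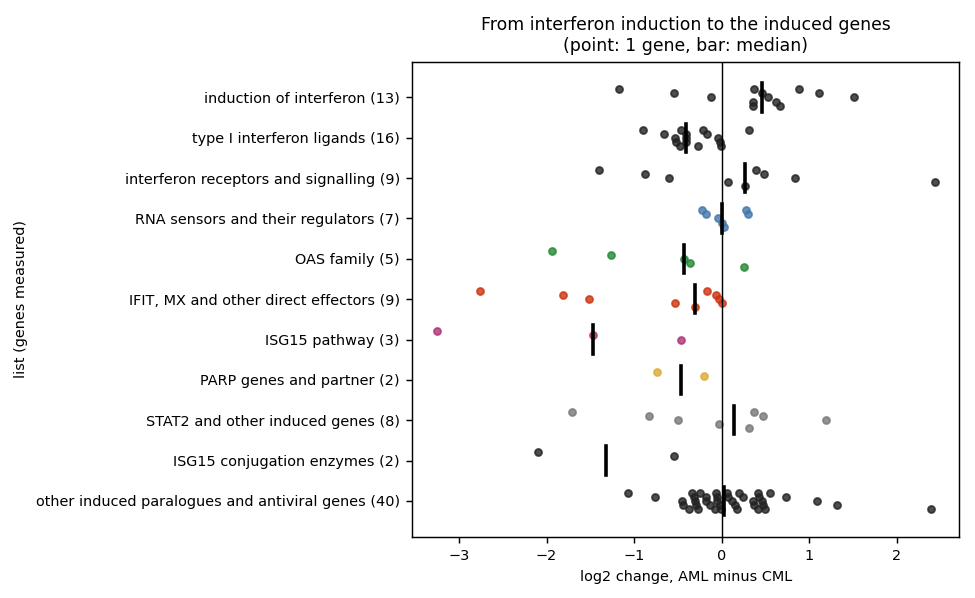
Log2 change, AML minus CML (horizontal axis), of single genes (points) in each list (vertical axis, with the number measured), with a black bar at the list's median. The median is 0.46 for induction of interferon, -0.41 for the ligands and 0.01 for the RNA sensors, and the points farthest to the left are Isg15 and Rsad2.

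The arrays of a group differed in the markers of other cells they carried, and these values belong beside the results above. Col1a1, whose promoter drives the reporter, was at 7.26 or more on every array, and the summed log2 level of 8 osteoblast genes was 57.0 to 78.0 in CML against 51.5 to 65.3 in AML. The 10 blood-cell genes, Ptprc among them, summed to 64.6 to 83.3 in CML and 84.8 to 92.0 in AML. The same sum was 50.7 to 53.6 against 55.4 to 64.1 for 10 monocyte and macrophage genes, 82.3 to 94.6 against 98.9 to 104 for 10 granulocyte genes and 21.2 to 36.6 against 20.8 to 25.3 for 5 B lineage genes. By value, 10 blood-cell, 6 monocyte and macrophage and 9 granulocyte genes were higher in AML. The other 4 monocyte and macrophage genes, 1 granulocyte gene and all 5 B lineage genes were lower (61.7% of all genes were). Vav1, Cd68, Ccr2, Elane, Mpo and Prtn3 passed as higher at an adjusted p under 0.05 in limma, where 1.83% of all genes did. Elane was higher by 3.85 on the log2 scale. Mrc1 and C1qa were lower on every AML array. The 8 measured genes of plasmacytoid dendritic cells, a known source of interferon, summed to 34.9 to 39.6 and 36.1 to 37.9, with 5 lower and 3 higher by value. Siglech was at 5.25 ± 0.13 in CML and 4.73 ± 0.12 in AML (SD, n = 3 each; limma adjusted p = 0.125), and Lair1, of the same list, was higher by 2.22 on the log2 scale (limma adjusted p = 0.0743). None of these markers was at 0 on any array. No gene reached the floor of 1, so this does not show that a cell type was present. In bulk samples, fewer cells of a type and less RNA per cell cannot be told apart.

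Erythroid genes also differed between arrays of a group. Their list was lengthened after the values were seen, to 16 measured genes, of which Slc4a1, the anion exchanger of red cells, is one. Their mean log2 level was 7.19, 9.38 and 8.51 in CML against 4.59, 6.48 and 8.20 in AML. All 16 had a lower mean in AML, where 61.7% of all genes did. None passed an adjusted p of 0.05 in limma, where 0.0812% of all genes passed as lower. Before adjustment 2 of the 16 were lower at p under 0.05 in limma, against 8.99% of all genes. Of the 34 genes, 4 ranked the arrays within both groups as the erythroid mean did (11.8%, against 5.47% of all genes), Isg15, Isg20, Parp14 and Lgals3bp. Within CML 11 did so (32.4%, against 3994 of the 22180 genes), Oasl2 and Ifit1 among them, and within AML 7 did (20.6%, against 18.7%), Rsad2 among them. The 9 genes lower in AML at an unadjusted p under 0.05 in limma were also counted. Of these 9, 5 had the erythroid order within CML, 4 within AML and 3 in both groups. Usp18, Oas3 and Rtp4, also among the 9, had it in neither group. All 16 erythroid genes were higher on AML 3 than on CML 1, and between these arrays 22 of the 34 genes were lower on AML 3 (64.7%, against 55.5% of all genes). AML 3 minus CML 1 was -1.27 for Isg15, -1.31 for Rsad2, -1.91 for Usp18, -1.47 for Rtp4 and 0.25 for Isg20. For the 10 genes with every AML array below every CML array, Isg15, Rsad2, Usp18 and Rtp4 among them, the negative sign was fixed. The part of blood or erythroid cells in these results was not tested.

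**Figure D4:**
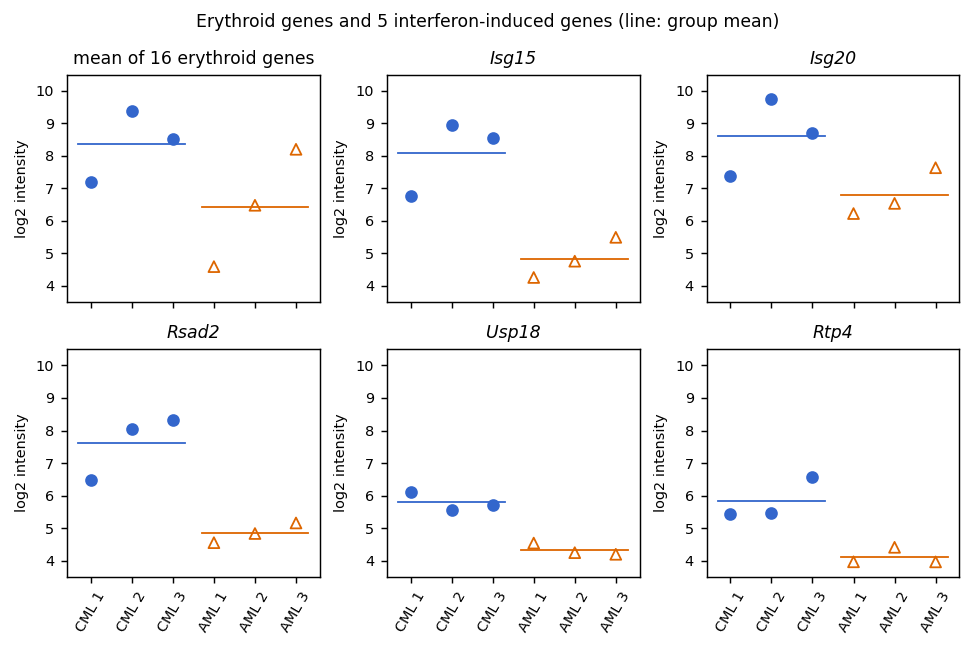
Log2 intensity (vertical axis, same scale in each panel) on each array (horizontal axis) of the mean of 16 erythroid genes and of Isg15, Isg20, Rsad2, Usp18 and Rtp4; circles are CML, triangles AML, and lines the group means. The erythroid mean reaches 8.20 on AML 3, where Isg15 is at 5.49, Rsad2 at 5.16 and Usp18 at 4.19.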

How the data were processed

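The deposited value table gives 1 intensity per probe set and array that the values show to be on a linear scale; limma and lumi are named in the submitters' processing notes, with no version, and background correction and normalization are not given in the sources used here. Of 39721 probe sets, 23521 carried 1 gene symbol, 1814 several and the rest none in the platform annotation. Symbols were checked by Entrez identifier against a RefSeq table (GRCm38.p6), which changed 0. Log2 intensity (floor 1, never reached) was fitted over all 22180 genes in limma 3.58.1 (R 4.3.3, lmFit and eBayes), AML minus CML, two-sided, with Benjamini-Hochberg adjustment over all genes. Groups of 3 against 3 cannot go below 0.10 in an exact permutation test, so none is given. Steps were tested on simulated data.

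The genes, lists and role groups were chosen with earlier results of these data known. Full values are given for genes past the threshold and the 4 with the lowest unadjusted p in each role group, and for the 2 lowest of each upstream list. Alternatives were 3 other scalings, 2 filters on dim genes, 2 treatments of probe sets, trend and robust options in eBayes, weights per array, a replicate block, a floor of 16 and leaving out each array. Array median intensities were 17.2 to 20.4, and the number of arrays limits the precision. Figures used matplotlib 3.10.9.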

Additional observations from a re-analysis of the deposited data

How the results depend on the processing

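The 9 genes that were lower at an unadjusted p under 0.05 in limma were lower in all 17 alternatives. The filters on dim genes, treatments of probe sets, eBayes options and replicate block left their log2 changes as they were and could not turn a sign. For all of the 9 except Isg20, every AML array lay below every CML array. Leaving out an array, array weights and a floor of 16 could therefore not turn those signs either. The 9 genes were also picked as lower on these same arrays. The 2 adjusted calls were not stable. In some settings 0 of the 34 genes were lower at an adjusted p under 0.05 in limma. These were quantile normalization, cyclic loess, a replicate block and a floor of 16, where 6, 3, 0 and 0 of all 22180 genes were. Without adjustment 10, 11, 10 and 6 of the 34 were lower at p under 0.05, against 5.96%, 5.82%, 5.62% and 5.12% of all genes. The adjusted count was 4 (Rsad2, Isg15, Usp18 and Rtp4) after median centring, among the brighter 50% or 70% of genes and with array weights. Of all genes tested there, 22 of 22180, 19 of 11090, 21 of 15526 and 41 of 22180 were lower. With 1 array left out it ran from 0 to 4, with 0 in limma without CML 3, AML 1, AML 2 or AML 3, where 7, 8, 8 and 7 were lower at an unadjusted p under 0.05, 4 without CML 1 and 1, Usp18, without CML 2. The median log2 change of the genes was -0.33 after quantile normalization, -0.059 after median centring and -0.36 in the upper 50% of genes. That of all genes in the same settings was -0.03, 0.04 and 0.17. The cause was not tested. The deviations of same-numbered arrays from their group means had r of 0.24, -0.30 and -0.25 across genes, which are not independent replicates. With 3 arrays per group, each centred on its group mean, this cannot show whether the numbers pair samples. The labels state no pairing.

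Of the 34 genes, 17 were lower and 4 higher in every alternative. The other 13, with log2 changes from -0.22 for Trim25 to 0.37 for Lgals3bp, turned sign in some. Ifih1 turned to 0.11 after median centring and 0.063 with array weights, Eif2ak2 to -0.12 after both quantile normalization and cyclic loess, and Cmpk2 to 0.12 and 0.036 with median centring and array weights. Ifit2 went to 0.095, 0.083 and 0.15 and Trim30a to 0.096, 0.12 and 0.17 after quantile normalization, median centring and cyclic loess. With 1 array left out the change ran from -0.40 to 0.025 for Adar, -0.58 to 0.31 for Bst2, -0.21 to 0.24 for Cmpk2, -0.18 to 0.30 for Dhx58, -0.12 to 0.080 for Eif2ak2, -0.33 to 0.21 for Ifih1, -0.13 to 0.78 for Lgals3bp, -0.16 to 0.090 for Mx1, -0.26 to 0.57 for Oas1g, -0.39 to 0.052 for Trim25, -0.59 to 0.69 for Trim30a and -0.12 to 0.54 for Zbp1. Mx1 and Oas1g lay wholly under the floor of 16 and gave no value there.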

Other observations

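Relatives of the antiviral genes outside the list of 34 were mixed. Of 40 measured genes, 20 were lower and 20 higher by value, with a median log2 change of 0.02, and 3 in each direction were at an unadjusted p under 0.05 in limma (8.99% of all genes were lower and 12.6% higher at that p). Sp110, a nuclear body protein encoded beside Sp100, rose from 5.90, 5.56 and 6.46 in CML to 8.71, 8.42 and 7.96 in AML, a log2 change of 2.39 ± 0.29 (SE) with a limma adjusted p of 0.0248. It lost its call without CML 3, AML 1 or AML 2 (limma adjusted p = 0.0690, 0.110 and 0.130), fits in which 0 of all 22180 genes passed. Epsti1, an interferon-induced gene of leukocytes, was at 5.66, 4.83 and 5.06 in CML and 6.64, 6.16 and 5.999 in AML and missed the threshold (log2 change 1.08 ± 0.27, SE; limma adjusted p = 0.103). None of the 4 IFITM genes, whose products block fusion of enveloped viruses, passed. Ifitm2 was at 8.57, 7.98 and 9.53 in CML and 9.87, 10.24 and 9.92 in AML (log2 change 1.31; limma adjusted p = 0.136), while Ifitm3, Ifitm6 and Ifitm1 overlapped between the groups, with log2 changes of 0.41, 0.37 and -1.07 (limma adjusted p = 0.469, 0.706 and 0.204).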
